A study of Mus musculus with 2 samples.

Results

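Immediate early genes are transcribed within minutes of a signal, from promoters whose regulators are already present in the cell, and most of them encode transcription factors that then act on later genes. 10 of them are described here in mouse liver, namely Fos, Fosb, Jun and Junb, which encode subunits of the AP-1 factor, Atf3, a bZIP factor that pairs with Jun proteins, the zinc finger factors Egr1 and Klf6, the orphan nuclear receptor Nr4a1, and Ier2 and Btg2, a nuclear protein of the same early wave and an antiproliferative co-regulator. In liver these genes are known to rise after partial hepatectomy, injury, growth factors and handling of the tissue. The genes were picked by symbol, all 10 of 10 were found among the 19465 genes of the tables, and they were chosen because earlier results of these data showed them higher in 1 section. The difference between the sections is therefore given as a description.

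The liver sections came from 8-week-old naïve female littermates, bred from heterozygous parents and given no treatment. The AEG-1-WT mouse carried the wild-type protein, and the AEG-1-C75S mouse a CRISPR/Cas9 knock-in in which serine replaces the cysteine of AEG-1 that is palmitoylated, in every cell of the animal. There was 1 formalin-fixed section of 5 μm per genotype, taken from the same lobe, so genotype, mouse, block and section cannot be told apart and no test between genotypes was possible. RNA was measured with the probe-based 10x Visium assay, in which unique molecular identifiers (UMIs) are counted on spots that each cover a small region with several cells.

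Spots with over 50000 UMIs were left out, 7 of 2316 in AEG-1-WT and 4 of 2167 in AEG-1-C75S. The kept spots held 42246988 UMIs at a median of 16830 per spot in AEG-1-WT and 41674347 at a median of 18808 in AEG-1-C75S. The tables list 1896 spot barcodes in both sections. The tissue carried its label, since the 6 hepatocyte markers were all detected and summed to 193753 counts per 1000000 UMIs (CPM) in AEG-1-WT and 202662 CPM in AEG-1-C75S. All intervals below are 95% exact intervals that cover counting error only, not the spread between mice, and fewer cells of a type cannot be told apart from less RNA per cell.

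To show what the promoters of these genes share, the 250 bases before a RefSeq start (build GRCm38.p6, 5′ to 3′ on the gene's strand) were read. This was done for 8 of 10 genes, all but Egr1 and Ier2. The start used is not always the outer end of the gene. The Nr4a1 window lies inside the gene span, which begins at 101253902, and the Fosb window overlaps the end of its span at 19310118. Capitals mark TGACG or its complement CGTCA, the core that CREB and ATF proteins bind, and in Jun and Klf6 they mark TGACATCA, a variant of the full CREB site that was looked for after these sequences had been seen.

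Fos, chr12:85473640-85473889, + strand: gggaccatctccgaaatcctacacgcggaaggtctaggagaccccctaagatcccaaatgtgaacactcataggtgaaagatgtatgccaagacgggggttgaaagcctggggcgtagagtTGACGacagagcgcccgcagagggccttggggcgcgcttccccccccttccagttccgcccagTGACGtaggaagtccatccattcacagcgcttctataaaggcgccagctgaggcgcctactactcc
Nr4a1, chr15:101266596-101266845, + strand: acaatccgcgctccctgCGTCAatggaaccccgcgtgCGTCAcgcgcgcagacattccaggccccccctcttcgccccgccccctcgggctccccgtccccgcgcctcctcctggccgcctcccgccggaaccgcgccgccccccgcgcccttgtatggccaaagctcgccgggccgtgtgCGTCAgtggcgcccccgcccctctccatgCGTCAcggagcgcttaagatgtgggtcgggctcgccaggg
Btg2, chr1:134079156-134079405, - strand: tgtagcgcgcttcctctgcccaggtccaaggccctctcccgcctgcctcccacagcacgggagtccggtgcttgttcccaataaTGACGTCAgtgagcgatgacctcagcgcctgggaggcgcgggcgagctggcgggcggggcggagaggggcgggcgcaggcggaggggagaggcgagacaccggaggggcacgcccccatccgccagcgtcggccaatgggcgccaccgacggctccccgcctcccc
Jun, chr4:95052223-95052472, - strand: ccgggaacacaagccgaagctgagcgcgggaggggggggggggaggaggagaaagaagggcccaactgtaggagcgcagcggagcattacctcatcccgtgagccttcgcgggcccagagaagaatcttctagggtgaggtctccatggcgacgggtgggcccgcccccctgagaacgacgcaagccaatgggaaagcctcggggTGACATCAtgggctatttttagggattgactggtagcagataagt
Klf6, chr13:5861239-5861488, + strand: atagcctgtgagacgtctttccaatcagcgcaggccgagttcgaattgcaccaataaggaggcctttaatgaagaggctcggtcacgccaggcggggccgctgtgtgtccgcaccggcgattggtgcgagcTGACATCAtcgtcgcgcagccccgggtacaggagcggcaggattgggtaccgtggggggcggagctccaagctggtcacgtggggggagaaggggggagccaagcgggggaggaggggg

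TGACG, on either strand, was present in 6 of 8 of these windows (Fos, Fosb, Junb, Atf3, Nr4a1 and Btg2), against 17.8% of 32851 windows of the same length. Fos held it at 129 and at 66 bases before the start, and Nr4a1 held 4 copies. The matches in Btg2 overlap in the palindrome TGACGTCA, the full site, which 1.55% of all windows held. TGACATCA stood 45 bases before the start in Jun and 119 in Klf6, and 2.93% of all windows held it. The AP-1 site TGACTCA or TGAGTCA was in 0 of 8 windows against 4.46% of all. The CArG box, the site of serum response factor, was in 0 of 8 against 1.47%. A near match to the CArG box, such as ccttgtatgg in Nr4a1, was not counted. Bases farther upstream were not read, and Egr1 and Ier2 had no window. The counts of 0 therefore do not show that these genes lack either site. The EGR site GCGGGGGCG or GCGTGGGCG was in Fosb and Nr4a1, against 3.06% of all windows. GGGCGG was shared by more of the windows than TGACG, 7 of 8 against 32.7% of all. CCAAT was in 4 of 8 against 33.8%, and TATAAA in 1 of 8 against 12.4%. The comparison with all windows did not take base content into account. These matches are letters in a window and describe neither binding nor a cause of the values that follow.

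Across the sections, 9 of 10 genes were at least 1.5-fold higher in AEG-1-C75S and 7 of 10 at least 2-fold higher, while of all 11998 genes with at least 50 UMIs 2.29% and 0.600% passed these folds and 5.20% were at least 1.5-fold lower. The median log2 ratio of the 10 genes was 1.51, against -0.05 over all genes, and since the genes were chosen on this contrast nothing is read from these counts. Summed, they had 301.4 CPM (12732 UMIs) in AEG-1-WT and 711.7 CPM (29658 UMIs) in AEG-1-C75S, a log2 ratio of 1.24 (1.21 to 1.27).

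Fos and Fosb, whose proteins bind DNA only as partners of JUN proteins, had the widest gaps of the 10 genes. Fosb had 27 UMIs (0.639 CPM) in AEG-1-WT and 241 (5.78 CPM) in AEG-1-C75S, a 9.05-fold difference (6.07 to 14.0). Fos had 161 UMIs (3.81 CPM) and 1371 (32.9 CPM), an 8.63-fold difference (7.33 to 10.2). The intervals of both ratios overlapped, and that of Fos lay above the interval of every gene but Fosb.

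Jun and Junb, the subunits that also pair among themselves, were detected in far more AEG-1-WT spots. Jun had 1201 UMIs (28.4 CPM) in AEG-1-WT and 2920 (70.1 CPM) in AEG-1-C75S, a 2.46-fold difference (2.30 to 2.64). Junb, which can hold back Jun on some targets, had 3975 UMIs (94.1 CPM) and 6534 (156.8 CPM), a 1.67-fold difference (1.60 to 1.73). The intervals of the ratios of Jun and Junb did not overlap. Of the other AP-1 subunits, Fosl2, a further member of the FOS family, had 333 and 464 UMIs (1.41-fold) and Jund 7568 and 8290 UMIs (1.11-fold).

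Atf3, a stress-induced factor that often represses its targets, had 147 UMIs (3.48 CPM) in AEG-1-WT and 695 (16.7 CPM) in AEG-1-C75S, a 4.79-fold difference (4.01 to 5.77). Nr4a1, a receptor regulated mainly by its own amount, had 86 UMIs (2.04 CPM) and 296 (7.10 CPM), a 3.49-fold difference (2.74 to 4.49). Egr1, which responds to ERK signalling through ELK factors, had 4515 UMIs (106.9 CPM) and 12874 (308.9 CPM), a 2.89-fold difference (2.79 to 2.99). These 3 ratios stood in that order, and neighbours in it had intervals that overlapped except where Fos was set against Atf3.

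Btg2, a p53 target that slows the cell cycle, had 655 UMIs (15.5 CPM) in AEG-1-WT and 1813 (43.5 CPM) in AEG-1-C75S, a 2.81-fold difference (2.56 to 3.07). Ier2 had 1068 UMIs (25.3 CPM) and 1804 (43.3 CPM), a 1.71-fold difference (1.59 to 1.85). Klf6, a factor of many liver cell types including stellate cells and macrophages, had 897 UMIs (21.2 CPM) and 1110 (26.6 CPM), a 1.25-fold difference (1.15 to 1.37). The whole interval of Klf6 lay below the 1.5-fold mark and those of Junb and Ier2 above it, and the interval of Klf6 did not reach that of Junb. Ranked among the 11998 ratios, Fosb stood 3, Fos 4, Atf3 7, Nr4a1 11, Egr1 23, Btg2 27, Jun 39, Ier2 142, Junb 157 and Klf6 841.

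**Figure D1:**
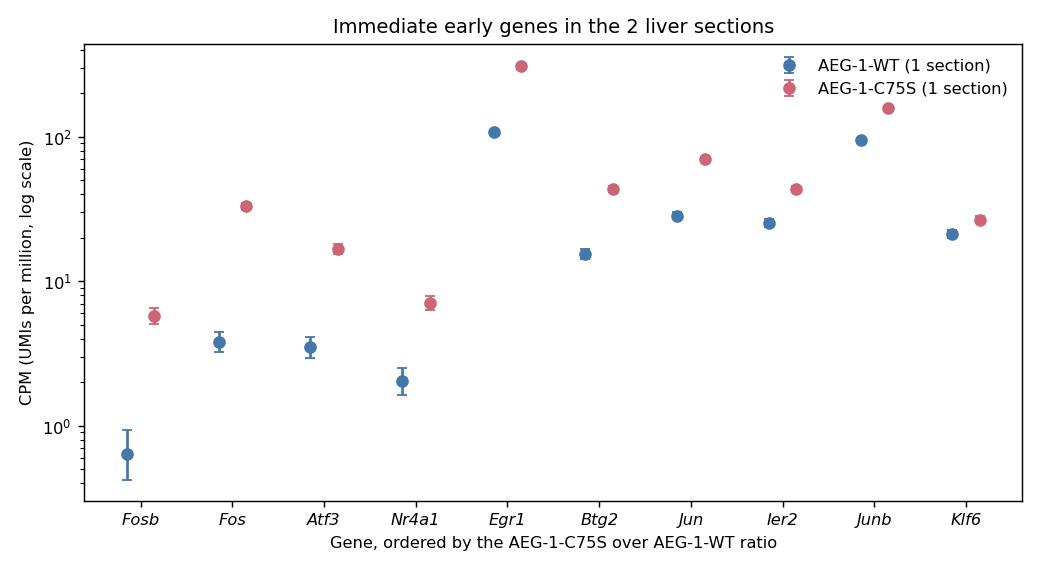
Level of each gene in the AEG-1-WT section (blue) and the AEG-1-C75S section (red) in CPM on a log axis, with 95% exact Poisson intervals as bars and 1 section per genotype. The red point lies above the blue one for all 10 genes, farthest for Fosb (9.05-fold) and least for Klf6 (1.25-fold).

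The higher level was spread over many spots. Fos was detected in 6.58% (5.61 to 7.67) of the AEG-1-WT spots, whereas 43.1% (41.0 to 45.2) of the AEG-1-C75S spots held it, and with every spot thinned to 3000 UMIs these shares were 1.26% and 9.81%. Egr1 was detected in 81.2% (79.5 to 82.8) and 97.5% (96.7 to 98.1) of spots, and after thinning in 26.6% and 59.5%. No AEG-1-WT spot held more than 3 Fos UMIs, and no AEG-1-C75S spot more than 6. A median of 3 of the 10 genes was detected per AEG-1-WT spot and 5 per AEG-1-C75S spot, which became 1 and 2 after thinning. All 10 genes were found together on 2 AEG-1-C75S spots and on 0 AEG-1-WT spots, which allows a share of up to 0.130% there. Without the 1% of spots with most UMIs of these genes, the summed log2 ratio was 1.25.

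Markers of most other cell types also differed between the sections, where 2.29% of all genes were at least 1.5-fold higher in AEG-1-C75S and 5.20% lower. All 8 connective tissue markers were at least 1.5-fold lower in AEG-1-C75S (205.7 against 98.4 CPM summed), 3 of 6 cholangiocyte markers were (132.9 against 98.5 CPM), and the 4 red blood cell markers summed to 626.6 and 415.7 CPM. All 10 Kupffer cell markers were higher, 2 of them at least 1.5-fold (1422 against 1844 CPM summed). Also higher were 7 of 8 stellate cell markers (683.8 against 832.9 CPM) and 9 of 11 leukocyte markers, 3 of them at least 1.5-fold (609.2 against 632.2 CPM). Endothelial markers had close sums (743.0 against 754.3 CPM), with 6 of 10 higher. No marker of any list was at 0. In the spots below the median of summed non-hepatocyte markers (1155 of AEG-1-WT, 1082 of AEG-1-C75S), the summed log2 ratio of the immediate early genes was 1.30, as large as over all spots. In these spots the ratio of Fosb was larger (log2 4.62). It rests on a part of the 27 AEG-1-WT UMIs of Fosb, so its size is uncertain.

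Genes related to the 10 were read from lists that were drawn up with earlier results of these data known, so their counts are a description. Of 23 other members of the same families (AP-1, ATF, NR4A, KLF, BTG and TOB, and IER genes with at least 50 UMIs), 1 was at least 1.5-fold higher and 3 lower, with a median log2 ratio of 0.08, where 2.29% of all genes were higher and 5.20% lower. No EGR gene is among them, since Egr2, Egr3 and Egr4 had 11, 10 and 0 UMIs in AEG-1-WT and 10, 6 and 0 in AEG-1-C75S. Nr4a3 was the only NR4A gene. Klf10, a TGF-β-inducible factor, had a log2 ratio of 0.67 (0.55 to 0.78), Fosl2 0.50 and Klf11 0.49, while Klf13 stood at -0.90, the fasting-linked Klf15 at -0.79 and Klf3 at -0.29. The 3 genes at least 1.5-fold lower were Klf13, Klf15 and Nr4a3. Nr4a3 stood at -0.91 (-1.77 to -0.09), on 38 AEG-1-WT and 20 AEG-1-C75S UMIs. Of 25 upstream genes (receptors, kinases and the SRF, ELK and CREB factors), 1 was at least 1.5-fold higher and 0 lower, against the same 2.29% and 5.20%, with a median of -0.03. That gene was Egfr, the EGF receptor, with 129.3 CPM in AEG-1-WT and 277.3 CPM in AEG-1-C75S, a log2 ratio of 1.10 (1.05 to 1.15). Crem, a cAMP-responsive factor, stood at 0.29, Elk4 at 0.11, Mapk14 at -0.18, Map3k1 at -0.22 and Elk3 at -0.24.

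Feedback genes damp the signals that induce the early response. Their list and that of other early response genes were also drawn up with earlier results known, so the counts below are no independent support. Of 17 of them, 8 were at least 1.5-fold higher in AEG-1-C75S and 1 was lower, with a median log2 ratio of 0.32, beside 2.29% and 5.20% of all genes. Socs2, a suppressor of cytokine signalling, had a log2 ratio of 1.39 (1.13 to 1.66), the ERK phosphatase gene Dusp6 0.74 (0.66 to 0.83) and Spry4, an inhibitor of receptor tyrosine kinase signalling, 0.64 (0.48 to 0.80). Nfkbia stood at -0.04, Nab2, which represses EGR factors, at -0.26, and the clock gene Per1 at -1.02 (-1.15 to -0.89). Of 28 other early response genes, 4 were at least 1.5-fold higher and 0 lower, with a median of 0.09, beside the same shares of all genes. The cell cycle inhibitor gene Cdkn1a had a ratio of 1.72 (1.44 to 2.01), Myc 1.47 (1.29 to 1.66) and Gem 0.78, while Bhlhe40 stood at -0.38, Plk2 at -0.45 and Sik1 at -0.50.

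A liver lobule runs from the portal tract, where blood enters and hepatocytes express Cyp2f2, to the central vein, where they express Cyp2e1. Within each section the spots were ranked by (Cyp2f2 + 1)/(Cyp2e1 + 1) and cut into quintiles of 432 to 462 spots, quintile 1 being the most portal and quintile 5 the most central. Cyp2f2 fell from 2444 to 369.7 CPM across the AEG-1-WT quintiles and from 2773 to 568.7 CPM across the AEG-1-C75S quintiles. The axis was set with earlier results of these data known, so the values along it are a description.

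In AEG-1-C75S the immediate early genes were higher toward the central vein. Fos had 14.2, 28.0, 33.8, 42.3 and 45.7 CPM in quintiles 1 to 5, so each step toward the vein was upward, and the central quintile stood 3.22-fold over the portal one on 383 and 114 UMIs (log2 of portal over central -1.69, with an upper bound of -1.38). Fosb had 1.74, 3.15, 3.88, 5.37 and 14.7 CPM, with 14 UMIs in the portal and 123 in the central quintile, an 8.42-fold difference (log2 -3.07, -3.99 to -2.27). The rise of Fosb was concentrated at the central end, while most of the rise of Fos lay nearer the portal end. Cut into deciles, Fosb had 2 UMIs in the most portal decile, 30 in decile 8, 64 in decile 9 and 59 in decile 10. Fos had 11.4 CPM in the most portal decile, 39.7 CPM (33.8 to 46.3) in decile 6 and 45.5 CPM (39.2 to 52.5) in decile 10.

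Atf3 had 9.97, 15.8, 17.4, 20.2 and 19.8 CPM in the AEG-1-C75S quintiles, a 1.99-fold central excess. After thinning to 3000 UMIs Atf3 had 18 portal and 22 central UMIs, and its log2 of portal over central was -0.29, short of the 1.5-fold mark. Nr4a1 had 4.36, 7.19, 6.88, 7.27 and 9.67 CPM, a 2.22-fold excess, and Jun 54.8, 63.1, 67.8, 74.8 and 89.6 CPM, a 1.63-fold excess. Jun and Nr4a1 were highest in the central quintile, and Atf3 had close levels in the last 2 quintiles. Smaller central excesses were measured for Junb (1.38-fold), Btg2 (1.37-fold), Ier2 (1.34-fold) and Egr1 (1.12-fold), all with intervals of the log2 difference below 0, and Klf6 (1.06-fold) had an interval that held 0 (log2 -0.09, -0.37 to 0.19). By the 1.5-fold mark 5 of 10 genes were higher centrally and 0 portally in AEG-1-C75S, where 5.25% of 9922 genes were higher centrally and 2.73% portally.

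The AEG-1-WT section had the same direction for the AP-1 subunits with enough counts. Fos had 2.14, 3.34, 3.24, 4.12 and 6.30 CPM in quintiles 1 to 5, a 2.95-fold central excess on 17 and 50 UMIs (log2 of portal over central -1.56). This value was -0.58 after thinning, on 4 and 6 UMIs, and -0.92 on an axis of other zone markers. Junb (1.29-fold) and Jun (1.27-fold) were also higher centrally, with intervals clear of 0. Fos was the 1 gene past the 1.5-fold mark among the 7 with at least 50 UMIs in the outer quintiles, where 5.88% of 9931 genes were higher centrally and 3.93% portally. Fosb, Atf3 and Nr4a1 had 14, 46 and 31 UMIs there, too few to place them. Klf6 had 159 UMIs in each of the outer quintiles, and Btg2, Egr1 and Ier2 had ratios with intervals that held 0.

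**Figure D2:**
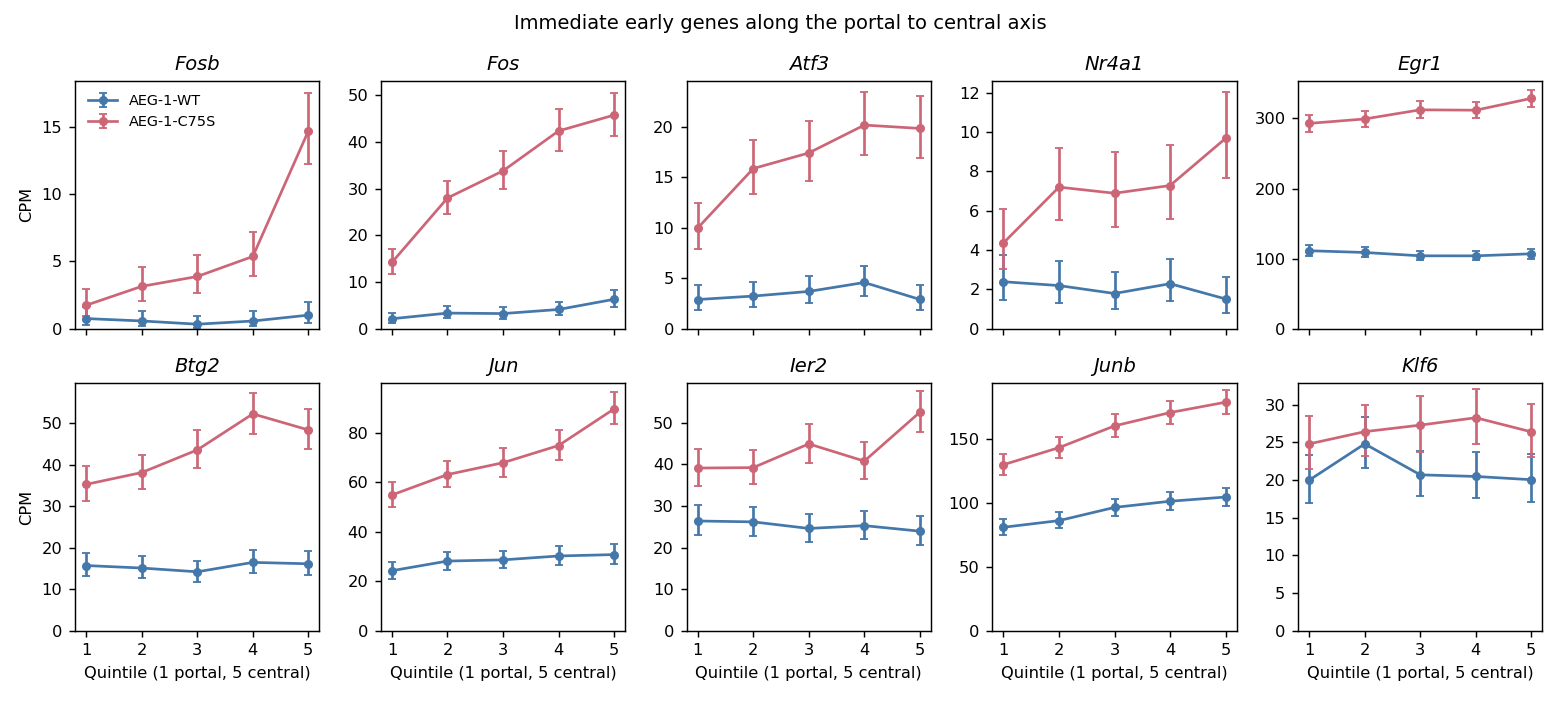
Level in CPM (linear axes from 0, each gene on its own scale) in the 5 quintiles of spots from portal (1) to central (5), for AEG-1-WT in blue and AEG-1-C75S in red, with 95% exact Poisson intervals as bars. Fos, Jun and Junb climb at every step in the red section, Fosb jumps in quintile 5, and Klf6 is nearly flat in both.

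The gap between the sections was present along the whole lobule and, for the summed genes, widest at its central end. The summed log2 ratio was 1.08, 1.15, 1.27, 1.28 and 1.37 from quintile 1 to quintile 5. The smallest ratio of Fosb was 1.21 in quintile 1, with an interval that held 0 (-0.26 to 2.88), and its largest was 3.86 in quintile 5. Nr4a1 ranged from 0.87 in quintile 1 to 2.68 in quintile 5 and Ier2 from 0.57 to 1.13 in the same quintiles. In quintile 5 Fosb and Nr4a1 had 8 and 12 AEG-1-WT UMIs, so the sizes of their ratios are uncertain. Genes with their largest ratio in quintile 5 did not all rise at each step as the sum did: Atf3 fell from 2.29 in quintile 2 to 2.14 in quintile 4. Fos, Btg2 and Klf6 had their largest ratio outside quintile 5. Fos had its largest ratio in quintile 3 (3.38) and 2.86 in quintile 5, while Btg2 (1.67) and Klf6 (0.47) had theirs in quintile 4. Klf6 was lowest in quintile 2 (0.09), where both sections had close levels of 24.8 and 26.4 CPM.

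The portal over central difference was also set directly against that of the other section. Among the 7 genes with at least 50 UMIs in the outer quintiles of both sections, the change in log2 from AEG-1-WT to AEG-1-C75S was for Ier2 -0.57 (-0.93 to -0.20), for Jun -0.37 (-0.70 to -0.04), and for Egr1 -0.22 (-0.38 to -0.06). For Btg2 (-0.42), Fos (-0.13), Junb (-0.09) and Klf6 (-0.09) the interval held 0. The interval of Fos was wide (-1.01 to 0.82) and that of Junb narrow (-0.28 to 0.10). Fosb (-2.65), Nr4a1 (-1.81) and Atf3 (-0.99) rest on 14, 31 and 46 AEG-1-WT UMIs, under that minimum, and nothing is read from their values. Since there was 1 section per genotype, these changes are between sections.

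**Figure D3:**
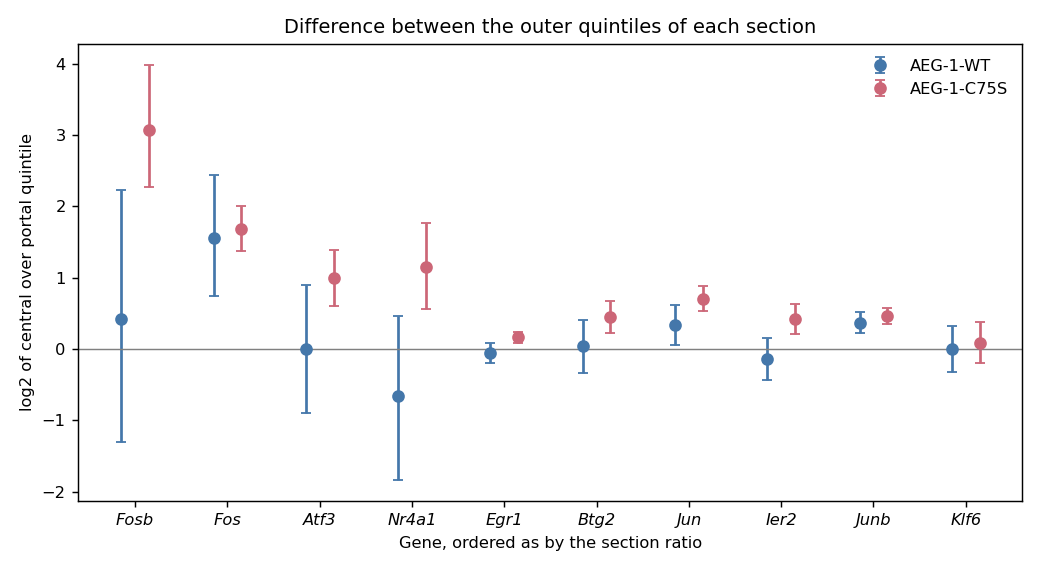
log2 of the level in the central quintile over that in the portal quintile for each gene, AEG-1-WT in blue and AEG-1-C75S in red, with 95% exact intervals of counting error and a line at 0. All 10 red points lie above 0, and the AEG-1-WT intervals of Fosb, Atf3 and Nr4a1 are wide and rest on few UMIs.

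Over the 10 section quintiles, with the mean of each section removed, the genes whose log2 CPM followed the summed immediate early genes most closely were Zfand5 (Pearson r = 0.99), Pitrm1, Lpl, Adcy6, Leprotl1, Rnd1, Ryk, Mcc, Herc4 and Ccn1 (r = 0.96). The points share their sections and the axis, so r is a description. All 10 were higher centrally in both sections, as were the summed genes they were picked to follow, so this comes with the choice. Ccn1, a matrix protein gene of the early response, had a log2 portal over central ratio of -1.09 for AEG-1-WT and -1.80 for AEG-1-C75S, yet its section ratio was 0.04. Lpl, the lipoprotein lipase gene, had a section ratio of 0.96 and the sections of Zfand5 differed by 0.12, so a like profile along the lobule came with very unequal differences between the sections.

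Joint detection asks whether spots with both genes of a pair outnumber what the separate shares of spots give. Within bins of spots of like total UMIs, the median over 45 pairs of observed over separate-share spots was 1.02 for AEG-1-WT and 1.01 for the AEG-1-C75S section. In AEG-1-C75S the ratios ran from 0.98 (Jun and Klf6) to 1.26 (Fos and Fosb). Fos and Fosb were together on 115 spots where their separate shares give 91.3, a ratio of 1.26 (1.04 to 1.51), the 1 pair in either section with an interval clear of 1. Bins drawn within each quintile reduce the shared central excess but do not remove it. With them the ratio of Fos and Fosb was 1.13 (0.93 to 1.36), an interval that holds 1. Fos with Nr4a1 (146 spots against 124.1, ratio 1.18, 0.99 to 1.38), Fosb with Nr4a1 (1.19) and Fosb with Atf3 (1.17) followed.

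In AEG-1-WT 36 of 45 pairs had at least 10 spots from their separate shares, and their ratios ran from 0.92 (Nr4a1 and Klf6) to 1.34 (Nr4a1 and Ier2, 43 spots against 32.1, 0.97 to 1.80). Pairs of genes found on most spots have little room to exceed 1: Egr1 and Junb were together on 1917 AEG-1-C75S spots against 1907 from separate shares. Egr1 was found on each of the 198 AEG-1-C75S spots with Fosb, yet that ratio was 1.02 (0.88 to 1.17). The intervals take no account of this limit, so an interval that holds 1 does not show that a pair is unrelated. After thinning, the variance of the summed UMIs over spots was 1.04 times the mean in AEG-1-WT and 1.08 times in AEG-1-C75S, where 1 is the value of counting error alone. Before thinning it was 1.82 and 3.85 times the mean, differences of depth between spots included. Thinning shrinks any spread beyond counting error, so values near 1 do not show that the spots are alike.

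**Figure D4:**
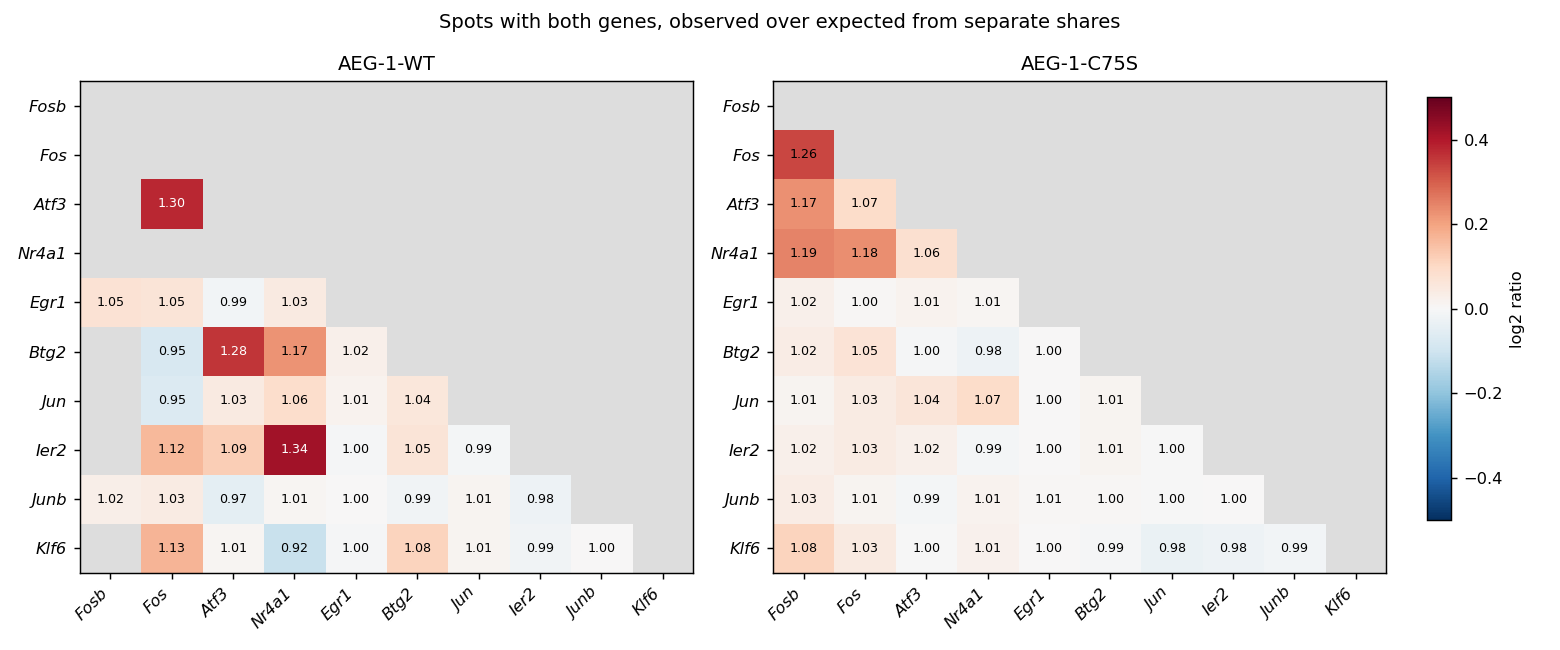
Ratio of spots with both genes to the number given by their separate shares within bins of total UMIs, for each pair in AEG-1-WT (left) and AEG-1-C75S (right), with colour for the log2 ratio and the ratio printed; grey marks pairs with under 10 spots from separate shares and the unused triangle. Most squares are near 1, and the darkest in AEG-1-C75S is Fos with Fosb at 1.26.

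Each gene was also compared between the 10% of spots richest in the other 9 genes and the remaining spots of like depth. In AEG-1-WT 4 of 10 genes (Fos, Fosb, Atf3 and Egr1) were higher in the rich spots with an interval above 0, and 8.10% of other genes were so in spots rich in all 10. Fos had 6.58 CPM in the rich and 3.49 CPM in the other spots, a log2 ratio of 0.92 (0.28 to 1.51), and Atf3 had 0.88 with 26 UMIs in the rich spots. Fosb, counted although its 27 AEG-1-WT UMIs lie under the minimum of 50, rested on 7 UMIs in the rich spots. Its ratio of 1.59 became 0.01 without the spots richest in connective and bile duct markers. Without those spots the count for AEG-1-WT was 2, and with the 25% richest spots in place of 10% it was 1.

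In AEG-1-C75S 6 of 10 genes (Fos, Fosb, Jun, Junb, Egr1 and Ier2) were higher in the rich spots, against 9.39% of other genes. Fosb had 10.7 CPM in the rich and 5.20 CPM in the other spots, a log2 ratio of 1.05 (0.55 to 1.51), while the others ranged from 0.11 for Egr1 to 0.36 for Ier2. Klf6 was the 1 gene with a value below 0 (-0.28, -0.60 to 0.02). Of the spots rich in all 10 genes, 35.0% lay in quintile 5 and 7.73% in quintile 1, against 22.2% and 15.2% in AEG-1-WT. With bins within quintiles the count was 3 and the ratio of Fosb 0.41. The other genes with the highest ratios in both sections were Prss8, Cd274, Rnf186, Hmgn2, Cks2, Sp4, Atad2b, B9d2, Cops7b and Phf1, between 0.41 and 0.67, and 4 of them (Prss8, Cd274, Cks2 and Cops7b) had intervals above 0 in both.

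Last, the genes were followed into the 10% of spots richest in the markers of other cells, at like depth and within quintiles. In AEG-1-WT the summed immediate early genes were slightly higher in spots rich in cholangiocyte markers (348.0 against 296.2 CPM, log2 0.23, 0.15 to 0.31), connective markers (0.22) and leukocyte markers (0.18). The summed genes were also higher in stellate-rich spots (0.09, 0.01 to 0.17). Rich spots were drawn from every quintile, so they are not portal tracts alone. From quintile 1 to 5 cholangiocyte markers fell from 268.6 to 31.6 CPM in AEG-1-WT, and leukocyte markers only from 617.1 to 502.1 CPM. In the cholangiocyte-rich spots 6 of 10 genes had intervals above 0, namely Fosb, Atf3, Klf6, Jun, Btg2 and Egr1, and 17.9% of the genes that are neither these 10 nor the markers did. Fosb is in that count with 7 UMIs in these spots, and its 27 over the section lie under the minimum of 50. Jun had 36.1 CPM there and 27.6 CPM elsewhere (log2 0.39, 0.14 to 0.64). No gene had an interval clear of 0 in AEG-1-WT spots rich in Kupffer or endothelial markers. The markers themselves were enriched there by only log2 0.93 and 0.77, against 3.30 in cholangiocyte-rich and 3.65 in connective-rich spots. The lists are therefore not alike in how well they pick out their cells, and those intervals do not show that the genes are absent from Kupffer or endothelial cells. Outside the cholangiocyte list the share of other genes was not measured in either section, so nothing is read from the counts of genes there.

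In AEG-1-C75S the summed genes had log2 ratios of -0.04 in cholangiocyte-rich spots, -0.06 in connective-rich (an interval below 0) and 0.01 in leukocyte-rich spots, and in the cholangiocyte-rich spots 0 of 10 genes had an interval above 0, against 8.51% of other genes. The summed genes were also lower in endothelial-rich (-0.10, -0.16 to -0.05) and Kupffer-rich spots (-0.08, -0.13 to -0.03), and stood at -0.04 in stellate-rich spots. In the endothelial-rich spots Btg2 (-0.25), Jun (-0.22) and Egr1 (-0.11) had intervals below 0. Klf6 differed from the rest: it had 35.1 CPM in Kupffer-rich spots and 25.6 CPM elsewhere (log2 0.46, 0.21 to 0.70), while Junb (-0.12) and Egr1 (-0.10) were lower there. Klf6 was also higher in leukocyte-rich (0.28) and stellate-rich spots (0.26, 0.00 to 0.52). Fos was higher in stellate-rich spots (0.28, 0.05 to 0.51). Connective markers were themselves enriched by log2 3.65 in the connective-rich spots of AEG-1-WT and 2.34 in those of AEG-1-C75S, so these spots are unlike between the sections. The part of other cells in the ratios between the sections was not tested beyond these values.

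**Figure D5:**
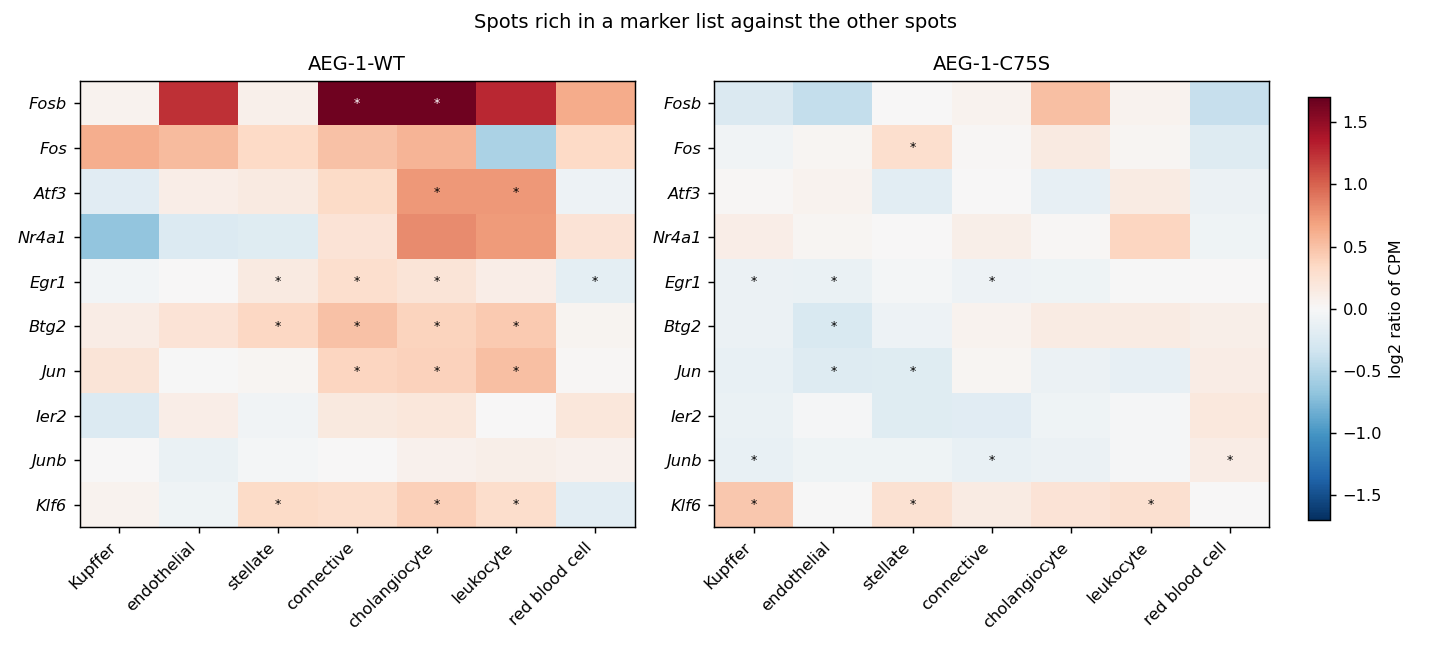
log2 ratio of each gene's CPM in the 10% of spots richest in a cell type's markers over the other spots, within quintiles and bins of total UMIs, for AEG-1-WT (left) and AEG-1-C75S (right), with an asterisk where the 95% exact interval leaves out 0. In AEG-1-C75S the strongest red with an asterisk is Klf6 in Kupffer-rich spots. Numbers of asterisks are not compared between lists, since the share of other genes was measured for the cholangiocyte list only.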

How the data were processed

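The authors ran Space Ranger 2.0.1 against mm10 and its mouse probe set and deposited raw UMI counts per spot under tissue, and the submitters' notes also name Seurat 4.3.0 for their own later steps. No normalized value was used. Depth, section thickness and spot numbers are given with the results. Glul and the spot coordinates were not analysed here.

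Spots with over 50000 UMIs were left out, 1 of the limits in the study's methods. Their limits of 100 and 7000 genes per spot, tried after the data had been seen, removed 0 more spots. UMIs were summed over spots and divided by the total of the same spots (CPM). Probe number and efficiency differ between genes, so levels were compared within a gene. For sums, exact Poisson intervals were used, for shares exact binomial (Clopper-Pearson) intervals, and for ratios of levels that of 1 sum within the total of both, all at 95%. The ratio of joint detection has the exact Poisson interval of the observed spots, with the number from separate shares taken as fixed. The change of a portal over central ratio between sections has an exact conditional odds-ratio interval. Genes entered a comparison with at least 50 UMIs in it. Fosb, with 27 UMIs in AEG-1-WT, was kept in the counts of rich and marker-rich spots. For the 11 duplicated symbols the first row was taken. Joint detection and rich spots used 10 bins of total UMIs, and within quintiles 5 bins. Thinning to 3000 UMIs left out 4 and 3 spots. An upper limit for a share of 0 used 3 counts.

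The genes, the pathway and marker lists and all rules were chosen with earlier results of these data known. Named were all 10 genes, in each pathway list the 3 highest and the 3 lowest ratios among genes with at least 500 UMIs, and the 10 other genes closest in rich spots and along the quintiles at the same minimum. Jund, Nr4a3, Egr2, Egr3 and Egr4 were named in addition. Alternatives covered the spot filter, scaling (TMM factors from edgeR 4.0.16 in R 4.3.3), depth matching, the axis, the bins and the marker-rich spots. Deciles of the axis were added after the data had been seen. The computations ran in python 3.11.15 (pandas 2.3.3, scipy 1.17.1, numpy 2.4.6) and were tested on simulated data. Promoter windows came from RefSeq, GRCm38.p6, the patch release of mm10.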

Additional observations from a re-analysis of the deposited data

Results flagged for a closer look

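The portal over central value lay on opposite sides of 0 in the sections for 3 genes, but each of the AEG-1-WT intervals held 0, so no AEG-1-WT direction is established, and with 1 section per genotype the change was not tested between genotypes. The AEG-1-C75S minus AEG-1-WT change in log2 was -1.81 for Nr4a1, which rests on 31 AEG-1-WT UMIs in the outer quintiles, -0.57 for Ier2 and -0.22 for Egr1. The AEG-1-WT values were 0.66 (-0.46 to 1.83) for Nr4a1, 0.14 (-0.15 to 0.43) for Ier2 and 0.06 (-0.08 to 0.20) for Egr1.

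The spots with over 50000 UMIs, which entered no comparison, held the immediate early genes at 650.5 CPM (547.9 to 766.7) on 4 spots in AEG-1-C75S, above the 333.8 CPM (277.6 to 397.9) on 7 spots in AEG-1-WT.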

How the results depend on the processing

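The number of genes at least 1.5-fold higher in AEG-1-C75S was 9 under all 10 alternatives, and no value clear of 0 turned its sign. The summed log2 ratio of 1.24 became 1.30 with TMM factors, 1.29 with median centering, 1.28 with totals without the 20 most abundant genes, 1.31 after thinning to 3000 UMIs and 1.30 in spots with few non-hepatocyte markers. Fosb ranged most, from 2.95 to 4.62, and with 27 AEG-1-WT UMIs its size is the least certain. The count of genes past 1.5-fold between the AEG-1-WT outer quintiles was 3 after thinning instead of 1. The count of genes higher in rich spots became 1 when the top 25% of spots were taken and 2 without connective- and bile duct-rich spots in AEG-1-WT, and 3 with bins within quintiles in AEG-1-C75S, so those counts depend on how rich spots are chosen and the cause was not tested. The share of all genes at least 1.5-fold higher was 3.78% at a minimum of 10 UMIs and 1.66% at 200. The medians of joint detection lay between 0.89 and 1.08. No paired analysis was possible because each genotype had 1 section.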
